A study of Mus musculus with 6 samples.

Results

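Sarcomeric myosin heavy chains are the motor proteins of the thick filament, and 9 genes for them were followed here: Myh1, Myh2, Myh3, Myh4, Myh6, Myh7, Myh7b, Myh8 and Myh13. The genes were taken by symbol from the array's annotation, using only probe sets with exactly 1 gene symbol. They are 9 of 23152 named genes on the array and hold 154 of 233753 such probe sets. The muscle was the soleus of male mice, aged 18 weeks and fasted for 14 h. MKO mice carried Ckmm-Cre together with Gna13 flox/flox alleles, so that Cre recombinase was made under the muscle creatine kinase promoter. WT mice carried the same Gna13 flox/flox alleles without Cre, and mice with Cre but unfloxed Gna13 are not part of the comparison. Each group had 3 mice and each mouse 1 array. Values are log2 values, in which 1 unit is a 2-fold change, and a gene's value on an array is the mean of its probe sets.

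Each muscle fibre is typed by the heavy chain it makes. Myh7 encodes the slow type I chain, which is also the beta chain of the heart, and Myh2, Myh1 and Myh4 encode the fast chains of type IIa, IIx and IIb fibres, in order of rising shortening speed. Mouse soleus is known mainly for type I and IIa fibres. Myh3 and Myh8 encode the embryonic and perinatal chains, which are used in development and again in regenerating fibres and in the small fibres of muscle spindles. Myh6 is the alpha chain of the heart, Myh13 the chain of extraocular and laryngeal muscle, and Myh7b an ancient slow-type chain that limb muscle transcribes at a low level.

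In the RefSeq table of assembly GRCm38.p6, 6 of the 9 genes lie side by side on chromosome 11, in the order Myh3, Myh2, Myh1, Myh4, Myh8 and Myh13. Myh6 and Myh7 are neighbours on chromosome 14, and Myh7b lies on chromosome 2. All 9 genes matched an entry of the RefSeq promoter table. The 250 bases before the start sites of the adult fast genes are shown because these neighbours share promoter elements but differed widely in how much their RNA varied between mice. Capitals mark every stretch of at least 8 bases that all 3 windows contain.
Myh4, chr11:67237562-67237811, plus strand: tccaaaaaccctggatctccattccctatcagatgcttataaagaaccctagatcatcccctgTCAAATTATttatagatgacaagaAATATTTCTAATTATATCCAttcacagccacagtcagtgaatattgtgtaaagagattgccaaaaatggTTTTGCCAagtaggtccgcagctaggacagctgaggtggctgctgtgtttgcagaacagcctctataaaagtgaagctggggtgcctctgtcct
Myh1, chr11:67199852-67200101, plus strand: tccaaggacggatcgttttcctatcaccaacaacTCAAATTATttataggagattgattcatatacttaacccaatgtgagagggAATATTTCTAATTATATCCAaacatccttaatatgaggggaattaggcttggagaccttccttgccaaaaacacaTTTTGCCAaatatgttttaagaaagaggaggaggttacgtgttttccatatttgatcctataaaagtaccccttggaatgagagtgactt
Myh2, chr11:67170777-67171026, plus strand: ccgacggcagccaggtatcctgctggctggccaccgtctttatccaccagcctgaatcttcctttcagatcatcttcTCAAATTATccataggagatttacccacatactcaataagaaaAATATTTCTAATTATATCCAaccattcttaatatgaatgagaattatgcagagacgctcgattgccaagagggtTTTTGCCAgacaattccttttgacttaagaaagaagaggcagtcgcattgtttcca

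The longest shared stretch, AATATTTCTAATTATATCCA, was searched on both strands in all 32851 promoter windows of the same length. It occurred in 3 of them, those of Myh1, Myh2 and Myh4. It begins 163 bases before the start site of Myh4, 165 before that of Myh1 and 130 before that of Myh2. The shorter stretches are less particular to these windows, since TCAAATTAT occurred in 0.174% and TTTTGCCA in 0.980% of all windows. The windows also differ. A match to the MEF2 motif, the site of the MEF2 factors of muscle genes, was found in the Myh4 and Myh1 windows and in 2.92% of all windows. The Myh4 window held 2 E-box matches (CANNTG, the motif of the myogenic factors, present in 66.2% of all windows) and 1 match to the CArG box, the motif of serum response factor (1.47% of all windows). The Myh1 and Myh2 windows held neither. The TATA match (TATAAA, 12.4% of all windows, both strands searched) overlapped the MEF2 match in 1 place each in Myh4 and Myh1. Such matches describe letters and are not measured binding.

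The genotype was checked first. Averaged over 7 probe sets, Gna13 stood at 6.77 ± 0.14 in MKO and 6.73 ± 0.20 in WT (SD, n = 3 each). Probe set 17257825 was lower in MKO, at 3.43, 4.25 and 4.33, against 5.48, 6.23 and 6.16 in WT. Which exon a probe set covers was not known here, so probe sets outside the deleted part check nothing, and 3 of the others were higher in MKO with groups apart. MKO replicate 1 scored 33.6 on the first principal component over all genes (32.8% of the variance), and the other 5 arrays between −19.7 and 14.4. MKO replicate 2 scored 31.4 on the second component (20.5% of the variance), and the other 5 arrays between −12.8 and 1.1. The median probe set value of an array lay between 4.87 and 4.95, and values near it are called dim below, since the table holds no detection calls. Values of different genes come from different probes, so each gene is compared between arrays and not with another gene. In whole muscle, fewer fibres of a type and less RNA per fibre cannot be told apart.

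No member passed the adjusted threshold of 0.05 in limma, and 0 of 23152 genes did (0% of all genes), although 1002 genes (4.33%) had an unadjusted p under 0.05. The local pooled error (LPE) test, which the submitters named and which was re-implemented here, called 34 genes (0.147%). Of the 9 members, 6 were lower and 3 higher in MKO, with a median log2 difference of −0.10. Over all genes, 12374 were lower and 10778 higher, with a median of −0.01. At an unadjusted p under 0.05, 3 members were lower in MKO (Myh3, Myh4 and Myh7b) and 0 higher, where 2.41% of all genes were lower and 1.92% higher. In 2 members, Myh3 and Myh7b, the groups lay apart, meaning that they did not overlap, with MKO lower in both. Of all genes, 9.25% lay apart, 4.99% with MKO lower and 4.26% with MKO higher. With 3 mice in each group, 0.1 is the smallest two-sided p of an exact permutation test.

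**Figure D1:**
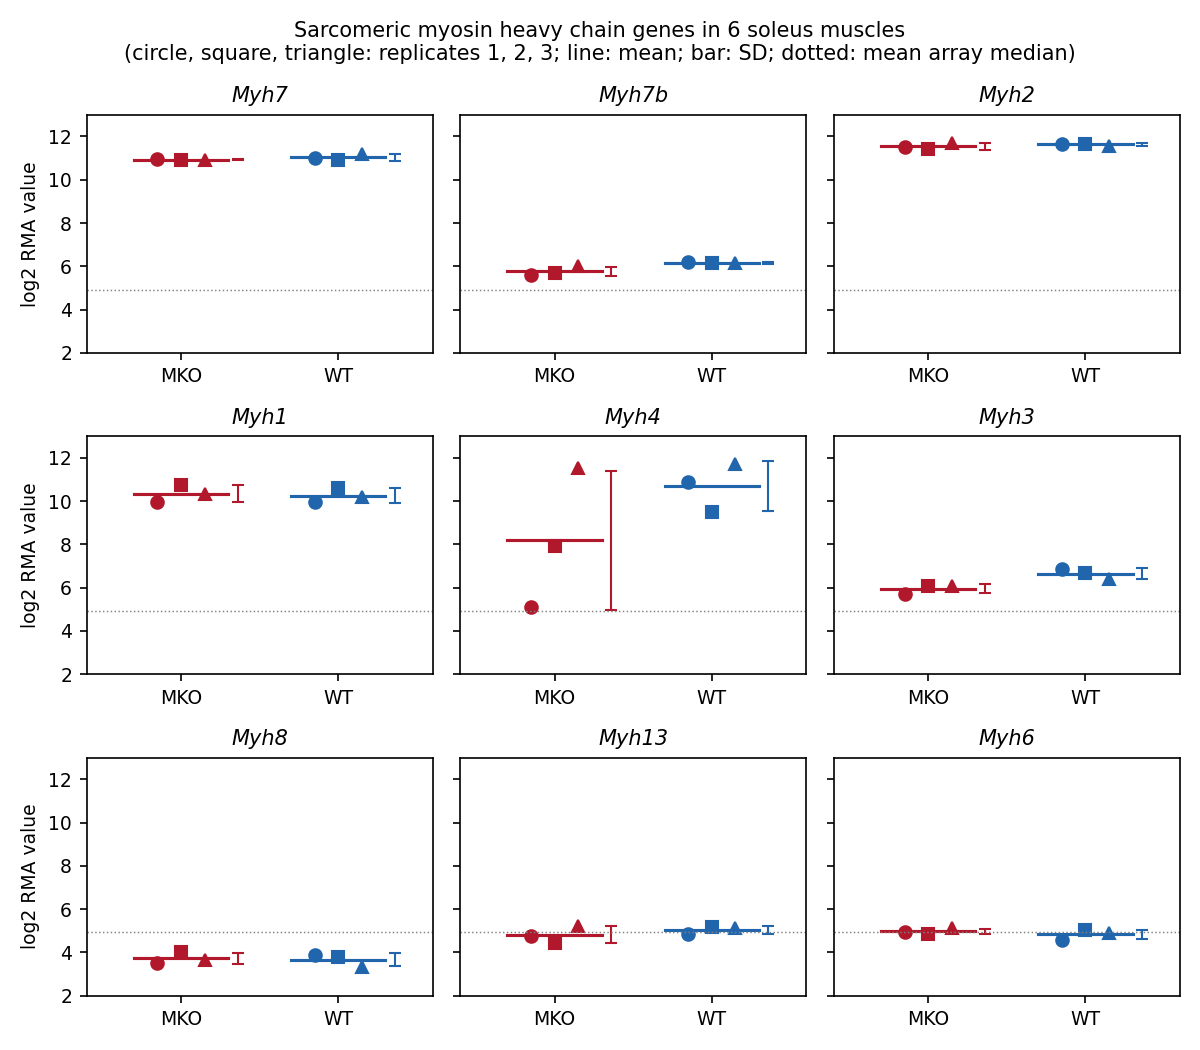
Log2 RMA value (vertical axis, the same scale in each panel) of the 9 heavy chain genes on the 3 MKO and 3 WT arrays. Points are mice, lines are means, bars are SDs, and the dotted line is the mean of the array medians. Myh4 spreads from 5.11 to 11.5 in MKO and from 9.48 to 11.7 in WT, while Myh7 and Myh2 stay within 0.31 log2 units over all 6 arrays.

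The slow and IIa chains, which mark most soleus fibres, were bright and steady. Myh7 stood at 10.93, 10.92 and 10.93 in MKO, against 10.99, 10.90 and 11.21 in WT. Its SD over the MKO mice, 0.0059, ranked 23135 of 23152 genes from the most variable, and the WT range held all the MKO values. Over the WT mice the SD was 0.16, rank 11405. Single probe sets of Myh7 varied more in MKO than their mean, with SDs from 0.0075 (17306601) to 0.41 (17306619). The difference was −0.10 (SE 0.08, 95% interval −0.27 to 0.07, adjusted p = 0.9997 in limma). Of its 16 probe sets 12 were lower in MKO, and 2 lay apart with MKO lower, 17306590 (−0.25, SE 0.09) and 17306601 (−0.19, SE 0.09). Of all rows of the table, 5.05% lay apart with MKO lower and 4.81% with MKO higher. The genes named as nearest to Myh7 by pattern over the 6 arrays were Tcp11 (Pearson r = 0.975), Dolpp1, Aldh1b1, Spdef and Slc36a2, with no test. After Dolpp1, 1 candidate of a kind that is not named was passed over. Like Myh7, each named gene was highest in WT replicate 3. Tcp11 was dim, at 4.46, 4.60 and 4.47 in MKO, against 4.63, 4.39 and 5.13 in WT. Candidates had to span at least 0.5 log2 units over the 6 arrays, while Myh7 itself spanned 0.31. Of the slow-fibre partners of Myh7, Tnnc1 (calcium-binding troponin C) averaged 11.17 ± 0.10 in MKO and 11.15 ± 0.17 in WT (SD, n = 3 each).

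Myh2 had 11.50, 11.40 and 11.71 in MKO, against 11.67, 11.66 and 11.57 in WT. The MKO values lay on both sides of the WT values. The difference was −0.09 (SE 0.08, 95% interval −0.26 to 0.07). It turned to 0.04 when the median of the 12 probe sets replaced their mean. With the 11 brighter probe sets alone it was −0.03 (SE 0.04). The dim probe set 17251002 had 2.83, 1.62 and 4.93 in MKO, against 3.97, 4.92 and 2.65 in WT. It weighed on the mean and on the spread of the MKO values. Of the Myh2 probe sets, 17251045 alone had groups that lay apart. It was higher in MKO at 12.12 ± 0.06 than in WT at 11.90 ± 0.07 (SD, n = 3 each). Such a separation with MKO higher was found in 4.81% of all rows of the table. For both genes the intervals exclude a difference of 0.5 log2 units in either direction.

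Myh1, the IIx chain, had 9.94, 10.73 and 10.34 in MKO, against 9.96, 10.61 and 10.20 in WT. Both groups covered nearly the same range. The difference was 0.08 (SE 0.18, 95% interval −0.31 to 0.47), and it was −0.12 without MKO replicate 2 and −0.07 without WT replicate 1. Of its 12 probe sets 7 were lower and 5 higher in MKO, with a median of −0.03, and all overlapped between the groups. The largest difference was that of probe set 17251048 (1.11, SE 0.71), and it weighed on the mean. This probe set had 5.69, 6.74 and 6.14 in MKO, against 3.27, 5.70 and 6.27 in WT.

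Myh4, the IIb chain of the fastest fibres, was the member that varied most. It had 5.11, 7.94 and 11.51 in MKO, against 10.89, 9.48 and 11.72 in WT. MKO replicates 1 and 2 lay below every WT mouse, and MKO replicate 3 lay above WT replicates 1 and 2. The highest mouse, WT replicate 3, exceeded the lowest, MKO replicate 1, by 6.61 log2 units or 97.9-fold, and within MKO replicate 3 exceeded replicate 1 by 84.6-fold. The SD was 3.21 in MKO, rank 1 of 23152 genes, and 1.13 in WT, rank 13. MKO replicate 1 stood 0.24 log2 units above its array's median probe set, so that Myh4 was dim in that muscle, while it stood 6.58 above it in MKO replicate 3 and 4.54 to 6.80 above it in WT.

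The Myh4 difference was −2.51 (SE 1.11, 95% interval −4.90 to −0.11, unadjusted p = 0.0414 and adjusted p = 0.9997 in limma), which is 5.69-fold lower in MKO. The groups overlapped, and the exact two-sided permutation p was 0.3 (n = 3 each). Single mice decided its size. It was −0.97 without MKO replicate 1, −4.17 without MKO replicate 3 (adjusted p = 0.218 in limma) and −2.0 without WT replicate 3. The LPE test put Myh4 far past the threshold (difference of medians −2.95, adjusted p = 1.62e-95). That test takes its error from genes of like level and does not use the spread of the gene itself.

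**Figure D2:**
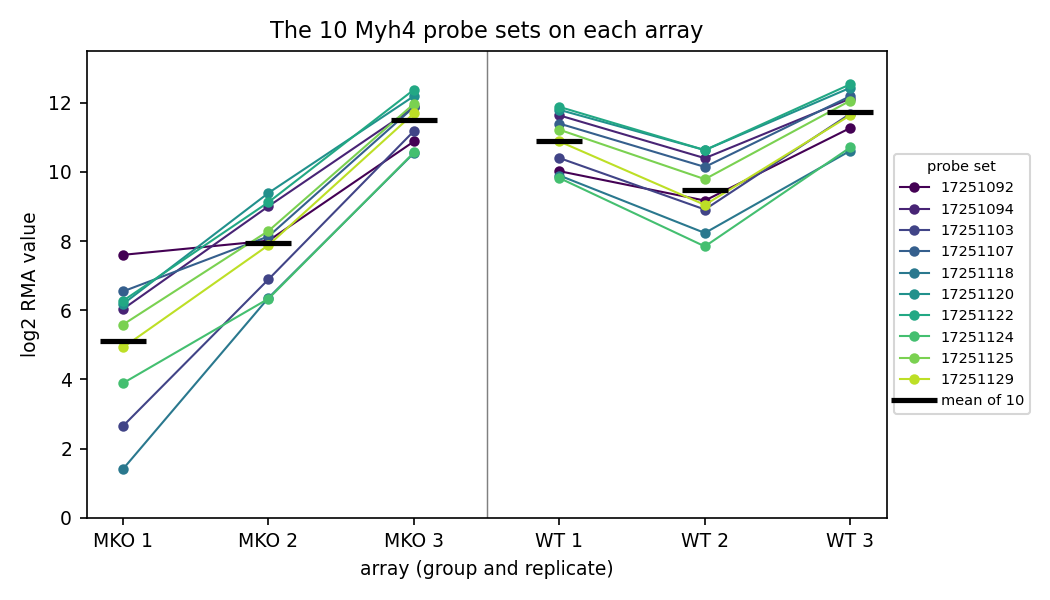
Log2 RMA value of each of the 10 Myh4 probe sets (coloured points) and their mean (black bars) on the 6 arrays. Lines join values of the same probe set and give no order to the mice. MKO replicate 1 is the lowest array and MKO replicate 2 the next lowest for all 10 probe sets.

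The 10 Myh4 probe sets moved together from mouse to mouse. In all 10 the lowest array was MKO replicate 1, and the arrays took 1 of 2 orders, which differ only in whether MKO replicate 3 or WT replicate 3 was highest. The range over the 6 arrays lay between 3.67 and 9.20 log2 units. Probe set 17251118 had 1.41, 6.36 and 10.54 in MKO, against 9.89, 8.23 and 10.61 in WT. Differences between the groups lay between −3.48 and −1.32, with 0 of 10 at an unadjusted p under 0.05. Probe sets of a gene share its transcript and its mice and are not replicates.

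Other fast-fibre genes were read on the same arrays. The list of fast-fibre partners of the heavy chains held 20 genes, of which 15 were lower and 5 higher in MKO, with a median difference of −0.08. At an unadjusted p under 0.05, 1 was lower (Casq1, the calcium store protein of fast fibres, −0.24, SE 0.11) and 0 higher. At that threshold 2.41% of all genes were lower and 1.92% higher. Pfkm, the muscle phosphofructokinase, lay lower with groups apart (−0.14, SE 0.07), as did 4.99% of all genes. Relative to the WT mean, the mean of the list was −0.57, −0.01 and 0.09 in MKO, against 0.02, −0.11 and 0.09 in WT. On this mean, MKO replicate 1 was the array apart. The mean of 8 fibroblast markers was lowest on the same array, at −0.52, 0.02 and −0.17 in MKO, against 0.12, 0.05 and −0.17 in WT, and the summed log2 level of these markers was 57.5 to 61.8 in MKO and 60.2 to 62.5 in WT. Its part in the Myh4 result was not tested.

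The fast-fibre genes with the widest spread were singled out after their values were seen. Actn3, alpha-actinin of the Z-discs of fast fibres, had 6.61, 9.64 and 9.92 in MKO, against 9.64, 8.94 and 10.29 in WT. Pvalb, the calcium buffer parvalbumin of the fastest fibres, had 5.64, 7.73 and 7.92 in MKO, against 7.66, 7.30 and 8.23 in WT. Both were lowest in MKO replicate 1 and lay within the WT range in MKO replicates 2 and 3. The myosin kinase gene Mylk4 (6.14, 7.65 and 8.24 in MKO, against 7.82, 7.07 and 8.45 in WT) and the fast myosin-binding protein gene Mybpc2 (6.92, 8.85 and 8.80 in MKO, against 8.43, 8.46 and 9.03 in WT) did the same. MKO replicate 2 thus had less Myh4 signal than WT replicate 2 by 1.54 log2 units, while each of these 4 genes was higher in MKO replicate 2 than in WT replicate 2. Other genes of the list spanned less over the 6 arrays, and examples were again picked after their values were seen. Casq1, with a range of 0.61 log2 units, and Gpd1, a glycerol phosphate dehydrogenase, with a range of 0.63, were also lowest in MKO replicate 1. Narrower ranges were those of Tnnt3 (fast troponin T), at 11.73 ± 0.06 in MKO and 11.73 ± 0.02 in WT, and Atp2a1 (the fast calcium pump), at 11.92 ± 0.10 in MKO and 11.94 ± 0.02 in WT (SD, n = 3 each). Both were lowest in MKO replicate 1 too, at 11.66 and 11.82. In the whole list only Tnni2, Tnnc2, Mylk2 and Ldha were not lowest on that array.

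**Figure D3:**
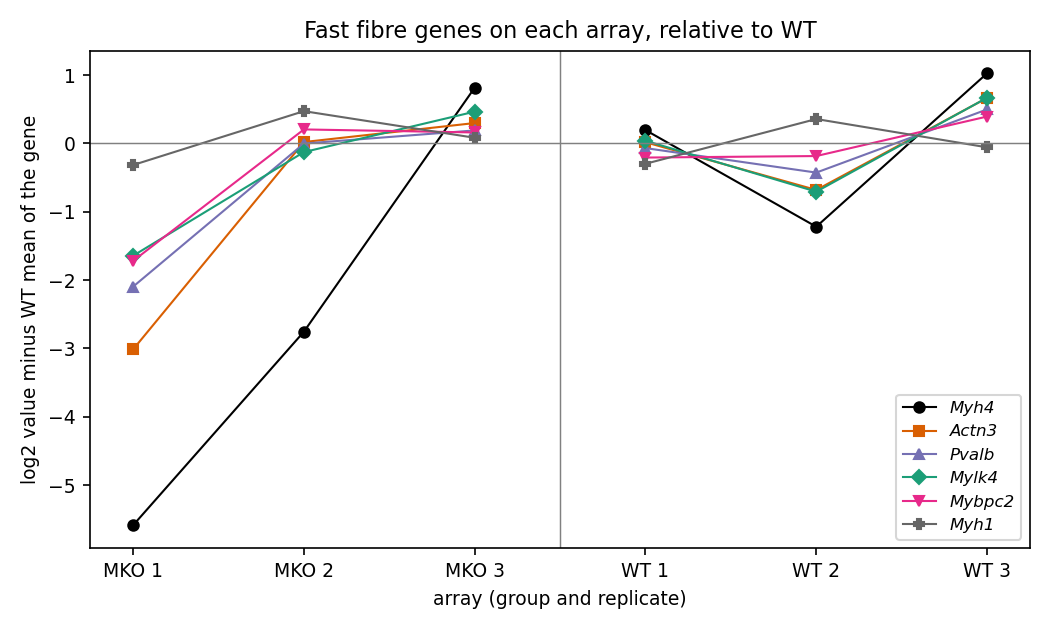
Log2 value minus the WT mean of the same gene (vertical axis) on the 6 arrays for Myh4, Myh1 and the fast-fibre genes Actn3, Pvalb, Mylk4 and Mybpc2. Lines join values of the same gene and give no order to the mice. All but Myh1 lie more than 1 log2 unit below the WT mean in MKO replicate 1. Myh4 does so in MKO replicate 2 and in WT replicate 2 as well.

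The genes named as most like Myh4 over the 6 arrays, among 4542 candidates above the median level that spanned at least 0.5 log2 units, were Commd2 (Pearson r = 0.99), Atrn, Tmem233, Cpeb2 and Ky (r = 0.966). Between Commd2 and Atrn, 2 candidates of kinds that are counted but not named (predicted genes, small RNA genes and olfactory or vomeronasal receptors) were passed over. Ky encodes a muscle protein needed for normal muscle growth, and it had 5.63, 6.41 and 6.89 in MKO, against 6.91, 6.62 and 6.79 in WT. These correlations describe 6 arrays, share the low values of MKO replicate 1, and carry no test. Myh1 had an r of 0.07 with Myh4. The long non-coding gene 2310065F04Rik, which RefSeq also lists as linc-Myh and which lies between Myh3 and Myh2, was looked up after the values were seen. It had 4.50, 5.22 and 5.32 in MKO, against 4.96, 5.17 and 5.12 in WT, a difference of −0.07 (SE 0.20).

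The embryonic chain Myh3 had the smallest p of the 9 genes. It had 5.71, 6.09 and 6.07 in MKO, against 6.87, 6.68 and 6.41 in WT. The groups did not overlap, with WT replicate 3 the WT array nearest to MKO. The difference was −0.70 (SE 0.15, 95% interval −1.03 to −0.37), or 1.62-fold lower in MKO. Its unadjusted p of 0.000543 ranked 16 of 23152 genes and gave an adjusted p of 0.786 in limma, and its exact permutation p was 0.1 (n = 3 each), the smallest this design allows. With each array left out in turn the difference lay between −0.82 (without WT replicate 3) and −0.57 (without MKO replicate 1).

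The Myh3 promoter window is shown as the start of the chromosome 11 cluster and as that of the member with the clearest separation, with its E-box match and its TATA match in capitals. It held no MEF2, CArG box or MCAT (CATTCC, 12.6% of all windows, both strands) match and none of the stretches shared by the adult fast genes.
Myh3, chr11:67078050-67078299, plus strand: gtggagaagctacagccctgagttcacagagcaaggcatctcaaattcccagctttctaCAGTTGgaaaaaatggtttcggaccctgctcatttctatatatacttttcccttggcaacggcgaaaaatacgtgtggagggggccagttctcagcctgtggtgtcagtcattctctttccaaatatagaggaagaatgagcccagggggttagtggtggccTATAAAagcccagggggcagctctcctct

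Most of the 24 Myh3 probe sets pointed the same way. In MKO 22 were lower and 2 higher, with a median difference of −0.77. An unadjusted p under 0.05 was reached by 11, all lower, where 2.8% of all 269751 rows of the table were lower and 2.2% higher at that threshold (5% in all). In 10 the groups lay apart, all lower, where 9.86% of all rows lay apart, 5.05% with MKO lower and 4.81% with MKO higher. In limma 0 rows passed the adjusted threshold (0%). Probe set 17250970, the brightest of the gene, had 9.32, 9.35 and 9.11 in MKO, against 10.20, 10.12 and 10.32 in WT. The difference was −0.95 (SE 0.11). Probe set 17250972 stood at 4.94 ± 0.46 in MKO and 6.57 ± 0.22 in WT (SD, n = 3 each). The 2 probe sets that were higher in MKO were 17250960 (0.99, SE 0.64, below the array medians on average) and 17250980 (0.01, SE 0.28).

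**Figure D4:**
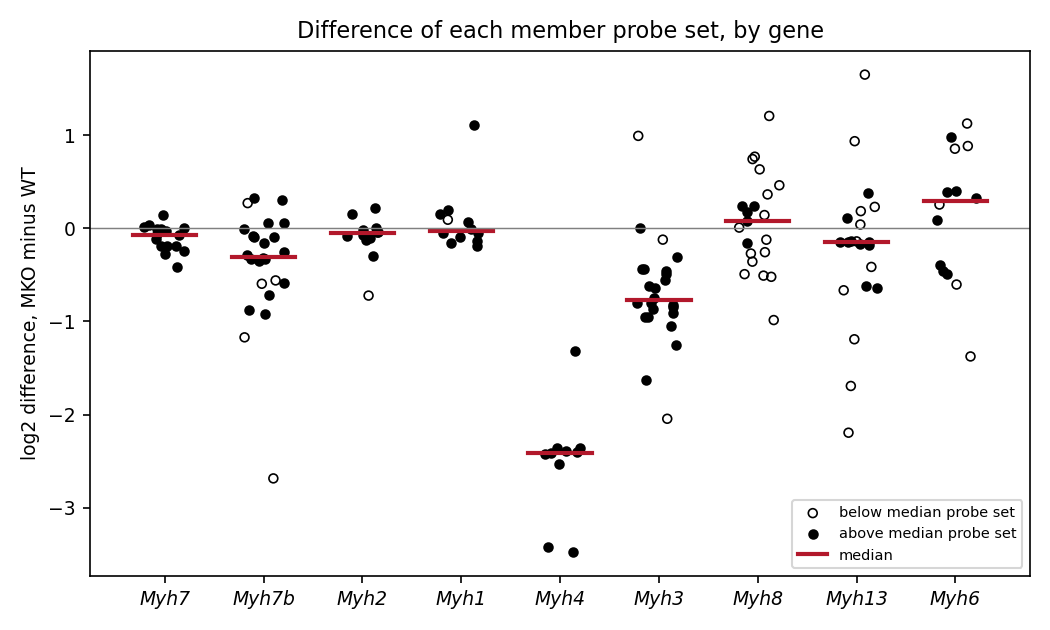
Log2 difference, MKO minus WT, of each of the 154 probe sets (points) by gene, with the median of each gene as a red line. Open points have a mean level below the median probe set of the table. For Myh4 all 10 and for Myh3 22 of 24 lie below 0, while the probe sets of Myh7, Myh2 and Myh1 centre near 0.

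Genes of development and regeneration that Myh3 is known to accompany were mixed. Of 17 measured, 12 were lower and 5 higher in MKO, with a median of −0.05. At an unadjusted p under 0.05, 1 was lower (as were 2.41% of all genes), Myog, the factor of muscle differentiation. It had 6.73, 6.39 and 6.32 in MKO, against 6.82, 7.04 and 7.10 in WT (difference −0.51, SE 0.14, adjusted p = 0.9997 in limma), with the groups apart. Ncam1, an adhesion molecule of immature and denervated fibres, also lay apart (7.75, 7.86 and 7.76 in MKO, against 7.96, 8.06 and 7.93 in WT). With MKO lower, 4.99% of all genes lay apart. Myl4, the embryonic light chain, differed by 0.19 and Chrng, the embryonic acetylcholine receptor subunit, by −0.14. Of 8 satellite cell markers 6 were lower, with a median of −0.09, and Pax7, which defines these stem cells, had 5.17, 5.34 and 5.44 in MKO, against 4.95, 5.08 and 5.18 in WT. Of 4 muscle spindle markers 3 were lower, with a median of −0.18, and Egr3, a transcription factor spindles need, differed by −0.28 (SE 0.20). The summed log2 level of the spindle markers was 19.51 to 20.40 in MKO and 20.01 to 21.24 in WT, and that of the satellite cell markers 41.3 to 42.3 in MKO and 41.9 to 42.4 in WT. Their part in the Myh3 difference was not tested.

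The genes nearest to Myh3 by pattern were Dusp10 (Pearson r = 0.974), Psmb2, Bhlhe41, Dgke and Cercam (r = 0.965), over the same 6 arrays and with no test. Bhlhe41 is a transcriptional repressor of the clock, at 6.41, 6.82 and 6.81 in MKO, against 7.20, 7.15 and 6.93 in WT. Between members, Myh3 and Myh7b had an r of 0.89 over the 6 arrays.

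Myh7b had 5.62, 5.70 and 5.99 in MKO, against 6.20, 6.14 and 6.14 in WT. All MKO mice lay below the narrow WT range, MKO replicate 3 nearest to it. The difference was −0.39 (SE 0.13, 95% interval −0.68 to −0.10, unadjusted p = 0.0124, adjusted p = 0.9997 in limma). Of its 24 probe sets 19 were lower and 5 higher, with a median of −0.30. Of the 24, 3 lay apart with MKO lower, where 5.05% of all rows did. The probe set 17378417 differed by −0.92 (SE 0.25). The dim probe set 17378413 had 0.65, 1.19 and 4.83 in MKO, against 5.50, 4.98 and 4.25 in WT, and it weighed on the mean. With the median of probe sets the difference was −0.18, and with the 19 brighter probe sets alone it was −0.24, with unadjusted p of 0.313 and 0.0593.

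Myh7b, Myh6 and Myh7 each hold a microRNA gene whose RefSeq position lies inside the host gene. These microRNAs are known to act on repressors of slow-fibre genes in mouse muscle. The mature sequences are shown because their seeds (bases 2 to 8, in capitals) relate the members of the family to each other.
miR-208a-3p, in Myh6: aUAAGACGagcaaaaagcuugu
miR-208b-3p, in Myh7: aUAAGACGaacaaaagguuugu
miR-499-5p, in Myh7b: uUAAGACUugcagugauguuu
The seeds of miR-208a-3p and miR-208b-3p are the same, UAAGACG, and that of miR-499-5p, UAAGACU, differs in its last base. The array read each gene with 1 dim probe set, and it is no measure of the mature microRNA. Mir499 had 2.91, 2.01 and 1.88 in MKO, against 1.99, 2.0 and 2.58 in WT. Mir208b averaged 2.02 ± 0.09 in MKO and 1.93 ± 0.28 in WT (SD, n = 3 each), and Mir208a 1.43 ± 0.14 in MKO and 1.51 ± 0.09 in WT (SD, n = 3 each). The groups overlapped for each.

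The remaining chains, which adult limb muscle is not known to use in its main fibres, had dim signals as means of their probe sets. Against the median probe set of each array, Myh8 lay between −1.61 and −0.88 log2 units, Myh6 between −0.36 and 0.18 and Myh13 between −0.46 and 0.30. Above the median probe set of the table on average were 5 of 21 Myh8, 8 of 14 Myh6 and 10 of 21 Myh13 probe sets. The Myh13 probe set 17251185 had 9.15, 7.96 and 8.29 in MKO, against 9.19, 8.54 and 9.52 in WT. Myh8, the perinatal chain, had 3.51, 4.03 and 3.64 in MKO, against 3.89, 3.78 and 3.31 in WT (difference 0.07, SE 0.20). All of its 21 probe sets overlapped between the groups. Of these 21, 4 have probe set numbers far from the others, and without them the difference was 0.09. Myh13 had 4.75, 4.45 and 5.23 in MKO, against 4.84, 5.16 and 5.13 in WT (difference −0.23, SE 0.19). MKO replicate 3 was the highest array and MKO replicate 2 the lowest. Myh6 had 4.96, 4.85 and 5.11 in MKO, against 4.59, 5.02 and 4.88 in WT (difference 0.14, SE 0.16), with all 6 arrays within 0.51. Of its 14 probe sets 9 were higher and 5 lower in MKO. Of 8 heart markers, Nppa and Myl7 of the atrium among them, 6 were lower and 2 higher, with a median of −0.07, and 0 lay apart.

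**Figure D5:**
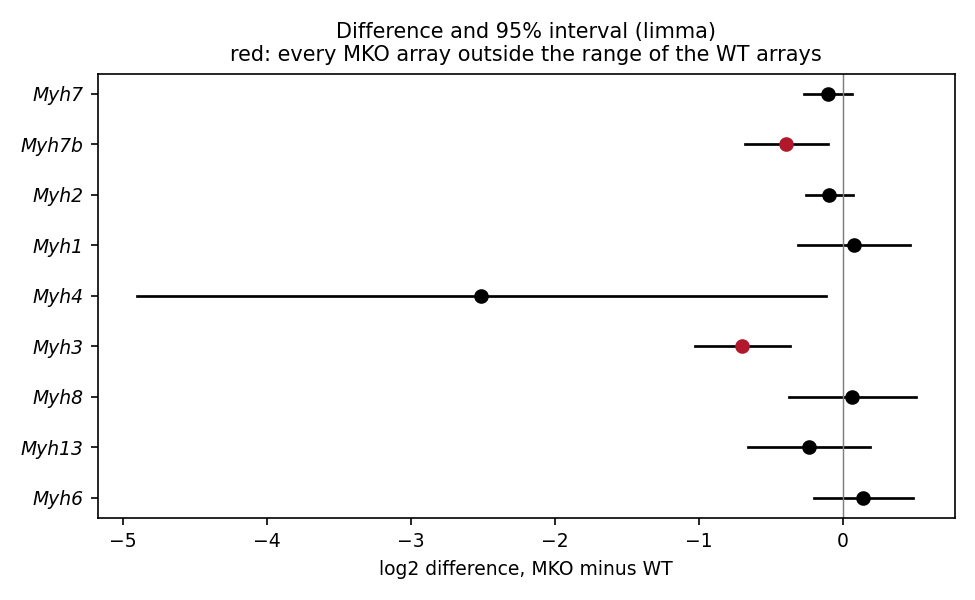
Log2 difference, MKO minus WT (horizontal axis), with its 95% interval from limma for the 9 heavy chain genes. Red points mark Myh3 and Myh7b, the genes whose groups did not overlap. The Myh4 interval runs from −4.90 to −0.11 and is the widest.

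The slow-fibre partners of the heavy chains numbered 18, of which 14 were lower and 4 higher in MKO, with a median of −0.04. At an unadjusted p under 0.05, 4 were lower, where 2.41% of all genes were, and in 5 the groups lay apart with MKO lower, as in 4.99% of all genes. Myl6b, a slow and embryonic light chain, had 8.13, 8.24 and 8.31 in MKO, against 8.64, 8.76 and 8.71 in WT (difference −0.48, SE 0.09). Tpm3, the slow tropomyosin, differed by −0.31 (SE 0.10), and Csrp3 and Ankrd2, stretch-responsive proteins of the Z-disc and I-band, by −0.21 (SE 0.09) and −0.17 (SE 0.07). In Mybpc1, the slow myosin-binding protein, the groups lay apart by a small margin (difference −0.06, SE 0.05). Slow troponin subunits Tnni1 (−0.04, SE 0.12) and Tnnt1 (0.03, SE 0.07) and the ventricular light chain Myl2 (−0.03, SE 0.13), which pair with Myh7 in slow fibres, overlapped between the groups.

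Of 16 measured genes of the thick filament and of myosin assembly, 12 were lower and 4 higher in MKO, with a median of −0.03. Mybph, a thick filament protein related to the myosin-binding proteins, was lower at an unadjusted p under 0.05 (4.97, 5.61 and 5.59 in MKO, against 5.63, 6.77 and 6.03 in WT, difference −0.75, SE 0.25). At that threshold 2.41% of all genes were lower. Mybph, by a narrow margin, and Myom3, an M-band protein (−0.15, SE 0.07), lay lower with groups apart. Trim55, a ubiquitin ligase of the sarcomere, lay higher with groups apart (0.18, SE 0.11). Of all genes, 4.99% lay apart with MKO lower and 4.26% with MKO higher. The myosin chaperone Unc45b differed by −0.03 and the methyltransferase Smyd1 by −0.01.

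Among 32 measured regulators of heavy chain genes, 21 were lower and 11 higher, with a median of −0.04. At an unadjusted p under 0.05, 0 were lower (as were 2.41% of all genes) and 1 was higher (as were 1.92%), Vgll2, a muscle cofactor of TEAD factors. It had 9.17, 9.13 and 9.10 in MKO, against 8.79, 9.09 and 8.92 in WT (difference 0.20, SE 0.09). Esrrg, a nuclear receptor of oxidative fibres, also lay higher with groups apart (0.18, SE 0.12), as did 4.26% of all genes. Sox6, which represses slow-fibre genes, differed by 0.0022 (SE 0.13).

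Of the myosin II heavy chains that do not form sarcomeres, Myh10, the non-muscle chain IIB, had 7.50, 7.50 and 7.52 in MKO, against 7.69, 7.91 and 7.89 in WT (difference −0.32, SE 0.10, unadjusted p = 0.0076, adjusted p = 0.9997 in limma). Its groups lay apart with MKO lower, as in 4.99% of all genes. Myh9 (−0.13, SE 0.11), the smooth muscle chain Myh11 (−0.05, SE 0.12) and Myh14 (0.11, SE 0.11) overlapped. Myh15, which resembles the sarcomeric chains, was dim and differed by −0.17 (SE 0.18).

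Markers of other cell types in the muscle were mostly lower in MKO as well. Of 8 fibroblast markers 7 were lower (median −0.30), among them Pdgfra, a receptor of fibro-adipogenic cells (−0.34, SE 0.14). Of 8 tenocyte markers 7 were lower (median −0.19), with a summed log2 level of 51.1 to 52.8 in MKO and 50.6 to 54.7 in WT. Of 8 endothelial markers 7 were lower (median −0.09), with a summed level of 54.4 to 56.8 in MKO and 55.9 to 58.6 in WT. Cldn5, a tight junction protein of endothelium, had 4.92, 5.05 and 5.07 in MKO, against 5.53, 5.98 and 5.72 in WT (difference −0.73, SE 0.15, unadjusted p = 0.000318), and its groups lay apart. Of 8 macrophage markers 7 were lower (median −0.14), with a summed level of 38.9 to 40.2 in MKO and 40.3 to 42.9 in WT. These ranges did not overlap, by a narrow margin (40.16 in MKO replicate 2, 40.33 in WT replicate 3). In each other marker list the ranges overlapped. Cd68, a lysosomal protein of macrophages, had 5.24, 5.58 and 6.06 in MKO, against 6.36, 7.08 and 5.89 in WT (difference −0.82, SE 0.26). Itgam, an integrin of myeloid cells, was the only 1 of the 8 with groups apart, lower in MKO (−0.23, SE 0.16). Itga7, an integrin in the satellite cell list, also lay lower with groups apart (−0.16, SE 0.10). Of all genes, 4.99% lay apart with MKO lower and 4.26% with MKO higher. The other lists were mixed. Of 8 smooth muscle markers 5 were lower and 3 higher (median −0.03), and Tagln, an actin-binding protein, lay higher with groups apart (0.10, SE 0.12). Of 8 adipocyte markers 5 were lower and 3 higher (median −0.15), and of 5 Schwann cell and nerve markers 2 were lower and 3 higher (median 0.17). The part of these cells in the lower values of Myh3, Myh4 and Myh7b was not tested.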

How the data were processed

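Soleus RNA of 3 MKO and 3 WT mice, biological replicates per the labels, was read on 1 Affymetrix Mouse Gene 2.0 ST array each. The deposited table holds log2 values that the authors made with RMA in Affymetrix Expression Console, per the submitters' processing notes. RMA corrects background, normalizes between arrays and summarises probes. No version or build was stated. Of 269751 rows, 233753 carried exactly 1 gene symbol, 5106 several and 30892 none, and averaging those with 1 gave 23152 genes. Two-sided limma fits (version 3.58.1, R 4.3.3, trended variance) compared MKO with WT, adjusted by Benjamini-Hochberg over every gene or row. Permutations ran in Python 3.11.15. Scripts were tested on simulated data. The few arrays limit the precision.

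The members and lists were chosen with earlier results of these data known. Of 112 partner and 77 marker entries, 108 and 73 matched a gene. The naming rule covered the members, up to 4 genes per list with the smallest p, list genes whose groups lay apart, and the 5 genes most like Myh4, Myh3 and Myh7 after passing over predicted genes, small RNA genes and olfactory or vomeronasal receptors. The text names only some of the genes taken by smallest p. Other names were chosen for their role or after their values were seen. Alternatives were limma without the trend, with robust moderation, array weights or a replicate block, the LPE test, quantile normalization, median centring, genes above the median level, other probe set summaries and each array left out. Sequences are from RefSeq tables of GRCm38.p6.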

Additional observations from a re-analysis of the deposited data

How the results depend on the processing

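Of the 9 members, 6 kept their direction under every alternative run, and only the LPE test put a member past the adjusted threshold (Myh4, −2.95). Myh2 turned to 0.041 with the median of probe sets and Myh8 to −0.14 with the LPE test. With each array left out, Myh1 ranged from −0.12 to 0.28 (−0.07 without WT replicate 1), Myh8 from −0.11 to 0.18 (−0.08 without MKO replicate 2) and Myh4 from −4.17 to −0.97. Genes lower in MKO past the threshold numbered 1 with array weights, 23 with the LPE test and 0 to 1 with an array left out, and genes higher 11 with the LPE test and 0 to 1 with an array left out. The LPE test called 14 member probe sets and 663 of all rows. List medians moved for the thick filament genes (−0.16 with the median of probe sets), the satellite cell markers (−0.039 with bright probe sets only), the developmental genes (−0.12 to −0.022 with an array left out) and the Schwann cell markers, at 0.11 with the LPE test, 0.32 with the median of probe sets, −0.030 with bright probe sets only and 0.063 to 0.18 with an array left out. The causes were not tested. Same-numbered mice had deviations that correlated at −0.09, 0.09 and −0.24, so the numbers were not taken as pairs. With the replicate block Myh4 remained at −2.51 (SE 0.67, adjusted p = 0.999962 in limma) and 0 genes passed. No detection calls were used, so signal over background is unknown for the dim members (Myh6, Myh8 and Myh13) and for Myh4 in MKO replicate 1. Against the median probe set of each array, Myh3 lay 0.83 to 1.92 and Myh7b 0.74 to 1.25 log2 units higher. The limit holds for these genes too.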
